A study of Mus musculus with 24 samples.

Results

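The transcripts of 9 genes that mark neural progenitors, newborn neurons or dividing cells were compared in the brains of mice infused with vehicle or angiotensin II, with and without amnion epithelial cells. The genes were Nes, Eomes, Neurod1, Sox11, Dcx, Igfbpl1, Mki67, Top2a and Cdk1, taken by name from a table of 54532 genes, in which each name matched 1 gene. Young adult male WT C57Bl6 mice received saline or angiotensin II at 0.7 mg/kg/d from an osmotic minipump for 2 weeks. Amnion epithelial cells (AECs) are human cells from the inner membrane of the placenta, and were injected into the tail vein after pump surgery in 1 group on each infusion, while the other mice received a saline injection. The 4 groups of 6 mice were vehicle, angiotensin II, vehicle + AEC and angiotensin II + AEC, and all 24 mice carried a pump. Poly(A) RNA of brain hemispheres was sequenced, and the level of a gene was given as FPKM, the fragments on the gene divided by its length and by the size of the library.

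In the adult mouse brain, new neurons arise mainly in the dentate gyrus of the hippocampus and in the subventricular zone that supplies the olfactory bulb. Radial glia-like stem cells there express the intermediate filament nestin, intermediate progenitors switch on the transcription factors Eomes (Tbr2) and Neurod1, and the young neurons express Sox11, doublecortin and Igfbpl1 while they migrate and extend processes. Dividing cells of any kind express Mki67, Top2a and Cdk1, and in the adult brain many of these are glial precursors. Several of these genes are also expressed outside neurogenic cells, Nes in vessels and reactive astrocytes, Eomes in mitral and tufted cells of the olfactory bulb, and Neurod1 in granule neurons of the cerebellum. A hemisphere holds few neurogenic cells, and in bulk RNA fewer cells of a type and less RNA per cell cannot be told apart.

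The libraries held 16536449 to 25308700 fragments, recovered from the FPKM values and gene lengths. The sum of FPKM over the whole table was 338334 to 348597 in 6 of the libraries, and 277116 to 298301 in the other 18. These 6 were replicates 5 and 6 of vehicle, replicate 5 of angiotensin II, replicate 6 of vehicle + AEC and replicates 5 and 6 of angiotensin II + AEC, so each group held 1 or 2 of them. The labels name no batch. Neuronal, astrocytic and oligodendrocyte markers, with Mbp highest at a mean of 521 FPKM, were present in every mouse with summed levels of 903 to 1274 FPKM.

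Of the 9 genes, Mki67 alone differed between groups at an unadjusted p under 0.05 in limma, with higher levels in mice infused with angiotensin II and in vehicle-infused mice given AECs than in mice given vehicle alone. None of the 9 differed at an adjusted p under 0.05 in any comparison, in limma on log2(FPKM + 0.1) or in voom on the recovered fragments, and neither did any of the 27286 genes tested in limma on log2 values (0% in each comparison and in the interaction). Angiotensin II against vehicle gave 1 of the 9 genes at an unadjusted p under 0.05, beside 2.21% of all genes tested (604). The same share was 2.41% of genes (658) for vehicle + AEC against vehicle, also with 1 of the 9. Angiotensin II + AEC against vehicle + AEC gave 0 of 9, beside 2.66% (725 genes), and angiotensin II + AEC against angiotensin II gave 0 of 9, beside 2.54% (694 genes). The interaction of angiotensin II and AECs gave 1 of 9, again Mki67, beside 2.54% (692 genes). Comparisons that share a group share its mice, so they are set side by side and are not independent. The p-values of the comparisons set each difference against the spread between the sampled mice, which includes the error of counting fragments.

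**Figure D1:**
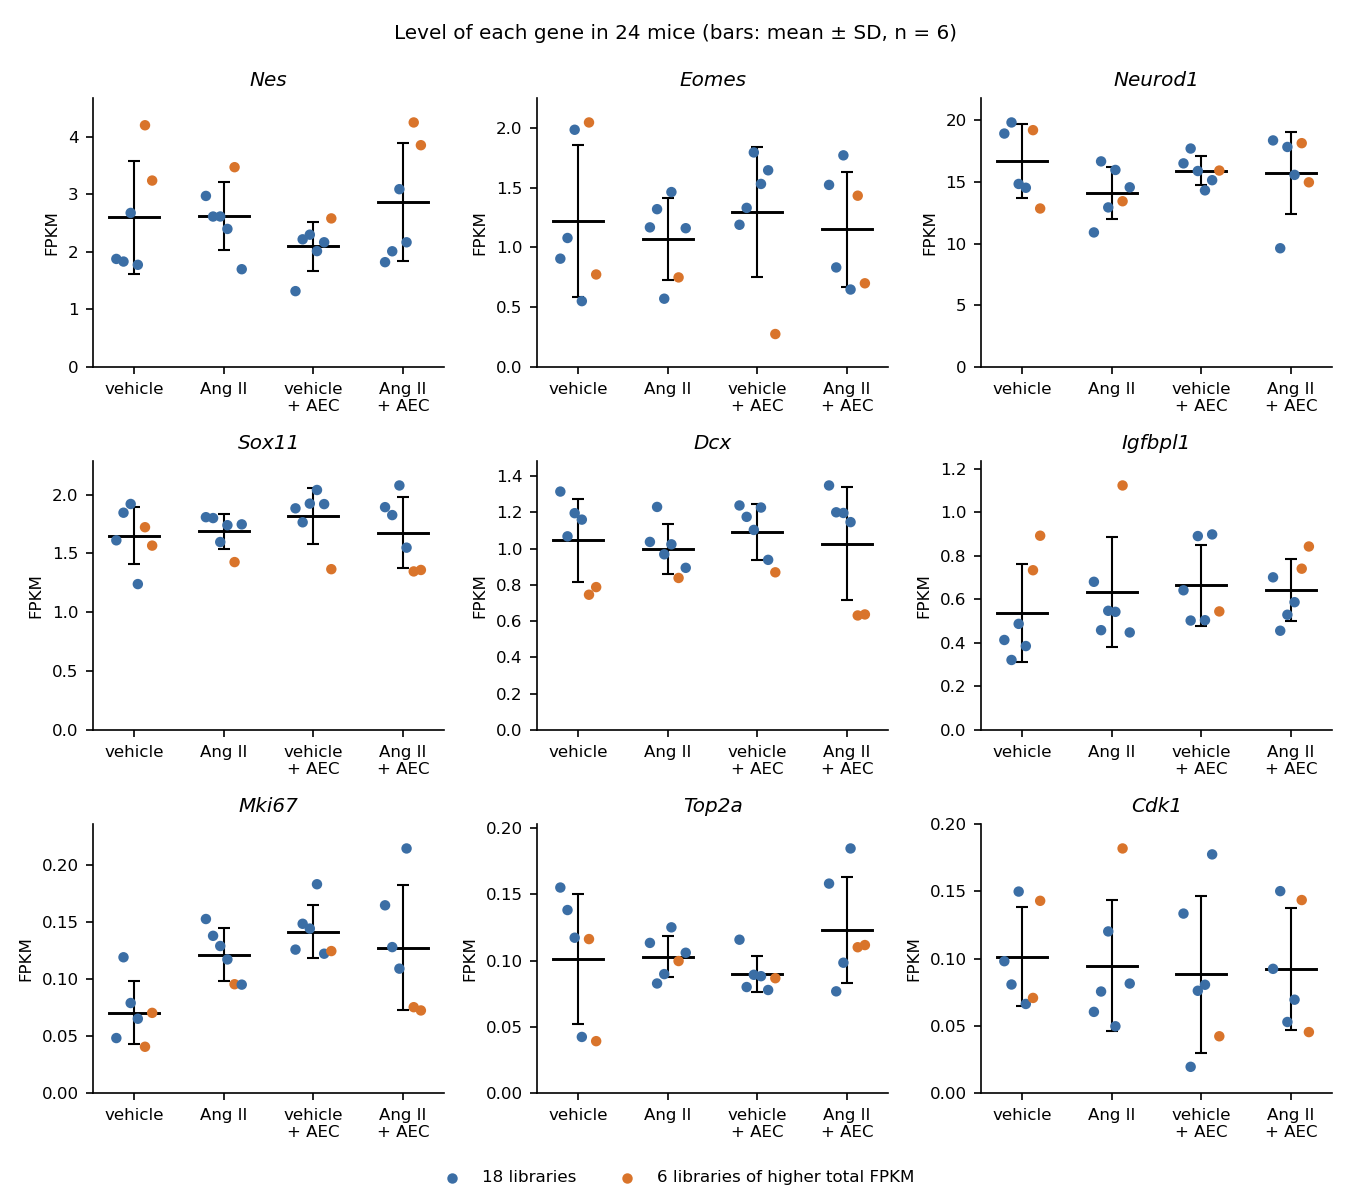
Level of each of the 9 genes in FPKM (vertical axis, from 0) in every mouse of the 4 groups. Points are mice, orange for the 6 libraries of higher total FPKM, and bars are the mean ± SD of 6 mice. For Mki67 all 6 vehicle + AEC mice lie above all 6 vehicle mice, and for the other genes the groups overlap in each of the 4 comparisons.

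Mki67 encodes the nuclear antigen Ki-67, which is made in cycling cells and absent from resting ones. The gene (ENSMUSG00000031004) lies at chr7:135689784-135716361 on the minus strand of GRCm38. Its level was low, with 7 to 44 fragments per library. In vehicle mice Mki67 ranged from 0.0405 to 0.119 FPKM with a median of 0.0676. In mice infused with angiotensin II it ranged from 0.0949 to 0.152 with a median of 0.123, so each of the 6 lay above the vehicle median and 3 lay above every vehicle mouse. In vehicle + AEC mice the range was 0.122 to 0.183 with a median of 0.135, and this group did not overlap with vehicle. Among all genes tested, 5 (0.0183%) had every vehicle + AEC mouse above every vehicle mouse. In angiotensin II + AEC mice the range was widest, 0.0723 to 0.214 with a median of 0.118, and it overlapped with every other group.

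The mean level of Mki67 was 0.0702 ± 0.0277 FPKM (SD, n = 6) with vehicle and 0.121 ± 0.0231 with angiotensin II, a ratio of means of 1.72. On the log2(FPKM + 0.1) scale, which understates changes of such low genes, the difference was 0.38 (95% interval 0.08 to 0.69, limma unadjusted p = 0.0156, adjusted p = 0.994, two-sided exact permutation p = 0.0108). With vehicle + AEC the mean was 0.141 ± 0.0232 FPKM, 2.01 times that with vehicle. That log2 difference was 0.51 (0.21 to 0.82, limma unadjusted p = 0.00205, adjusted p = 0.995), and its two-sided exact permutation p of 0.00216 is the smallest that 6 against 6 mice can give. Among mice given AECs, 2 of 6 angiotensin II + AEC mice lay above the vehicle + AEC median and 3 lay below every vehicle + AEC mouse. Angiotensin II + AEC mice had a mean of 0.127 ± 0.0548 FPKM, and their log2 difference from vehicle + AEC was -0.11 (-0.42 to 0.19, exact permutation p = 0.463). The difference from angiotensin II alone was 0.01 (-0.29 to 0.32, exact permutation p = 0.944). The interaction, the log2 effect of angiotensin II with AECs minus that without, was -0.50 (-0.93 to -0.07, limma unadjusted p = 0.0249, adjusted p = 0.931).

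The vehicle group was the low one in both Mki67 differences, and it enters both. Summed over 6 libraries, Mki67 had 85 fragments with vehicle, 145 with angiotensin II, 163 with vehicle + AEC and 149 with angiotensin II + AEC. Counting error alone would give a coefficient of variation of 26.6% within vehicle, where 39.4% was measured. Within angiotensin II the measured value of 19.1% was at the counting error of 20.3%. Within angiotensin II + AEC the measured 43.1% was above the counting error of 20.1%, and the lowest mice there were the 2 libraries of higher total FPKM. In the 18 other libraries the log2 difference was 0.36 for angiotensin II against vehicle (limma unadjusted p = 0.0402) and 0.47 for vehicle + AEC against vehicle (unadjusted p = 0.00948). The interaction was at -0.32 there (limma unadjusted p = 0.183), and at -0.37 with array weights (limma unadjusted p = 0.0675). With the library set as a term in the fit of all 24 mice it was at -0.41 (limma unadjusted p = 0.0439). In voom on the recovered fragments it was at -1.08 (voom unadjusted p = 0.00751, adjusted p = 0.903). With each of the 24 mice left out in turn, the unadjusted p was at most 0.0414 for angiotensin II against vehicle, 0.00669 for vehicle + AEC against vehicle and 0.0495 for the interaction.

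Top2a encodes topoisomerase II alpha, which untangles chromosomes in dividing cells, and Cdk1 the kinase that drives entry into mitosis. Top2a (ENSMUSG00000020914) lies at chr11:98992943-99024189 and Cdk1 (ENSMUSG00000019942) at chr10:69335146-69352938, both on the minus strand. They were as low as Mki67, with means over the 24 mice of 0.104 and 0.0942 FPKM beside 0.115 for Mki67, and the order of these 3 levels was not separated (each was above the next in 15 of 24 mice). Top2a ranged from 0.0392 to 0.155 FPKM with vehicle (median 0.117), from 0.0827 to 0.125 with angiotensin II (median 0.103), from 0.0778 to 0.116 with vehicle + AEC (median 0.0875) and from 0.0768 to 0.185 with angiotensin II + AEC (median 0.111). The largest difference of Top2a was between angiotensin II + AEC and vehicle + AEC, 0.22 on the log2 scale (-0.10 to 0.54, exact permutation p = 0.0736), with 5 of 6 mice above the vehicle + AEC median. Cdk1 rested on 2 to 18 fragments per library and its group medians lay between 0.0783 and 0.0894 FPKM. Its log2 differences ran from -0.14 to 0.06 in the 4 comparisons. In the comparisons where Mki67 was higher, the intervals of Cdk1 were -0.49 to 0.36 (angiotensin II against vehicle) and -0.56 to 0.29 (vehicle + AEC against vehicle), and those of Top2a were -0.27 to 0.36 and -0.37 to 0.27. These are narrowed by the added 0.1 at such low levels, and in voom on the recovered fragments they were -1.03 to 0.62 and -1.32 to 0.40 for Cdk1 and -0.37 to 0.87 and -0.59 to 0.69 for Top2a. Whether the 3 genes differed from each other in response was not tested.

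The sequence before the RefSeq starts of these 3 genes is shown because they are the cell cycle genes of the set and carry the letters by which such promoters are commonly recognised. The 250 bases before each RefSeq start (GRCm38.p6, all on the minus strand, printed 5′ to 3′) are chr7:135716380-135716629 for Mki67, chr11:99024190-99024439 for Top2a and chr10:69352913-69353162 for Cdk1. Capitals mark the CCAAT box (CCAAT or its complement ATTGG) and the cell cycle homology region (TTTGAA or TTCAAA).
Mki67: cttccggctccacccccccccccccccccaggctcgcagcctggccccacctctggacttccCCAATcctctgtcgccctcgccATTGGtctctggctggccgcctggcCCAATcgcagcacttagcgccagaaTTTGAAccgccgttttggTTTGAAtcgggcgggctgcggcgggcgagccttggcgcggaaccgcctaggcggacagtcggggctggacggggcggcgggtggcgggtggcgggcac
Top2a: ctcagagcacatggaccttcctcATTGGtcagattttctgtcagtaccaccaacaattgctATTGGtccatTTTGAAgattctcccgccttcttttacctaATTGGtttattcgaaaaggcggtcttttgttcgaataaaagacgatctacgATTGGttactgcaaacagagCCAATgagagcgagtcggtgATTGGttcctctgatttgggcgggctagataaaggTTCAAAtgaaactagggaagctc
Cdk1: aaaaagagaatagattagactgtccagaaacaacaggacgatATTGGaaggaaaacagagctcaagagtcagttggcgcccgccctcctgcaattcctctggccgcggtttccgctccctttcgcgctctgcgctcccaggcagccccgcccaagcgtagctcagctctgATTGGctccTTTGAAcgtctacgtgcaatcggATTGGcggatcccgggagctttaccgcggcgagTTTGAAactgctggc
Each of the 3 windows held 2 matches to TTTGAA, and the CCAAT box matched 3 times in Mki67, 6 times in Top2a and 3 times in Cdk1. Of the 32851 windows of this length in the RefSeq table, 16% held TTTGAA and 33.8% held CCAAT, on either strand. The windows of 8 of the 9 genes were in the table, all but Igfbpl1, and TTTGAA matched in 4 of them, the fourth being Sox11. CCAAT matched in 6 of the 8, the others being Eomes, Sox11 and Dcx. The E-box CAGATG (or CATCTG), a letter sequence bound by neurogenic basic helix-loop-helix factors, was in none of the 8, beside 14.4% of all windows. A match is a description of the sequence only.

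**Figure D2:**
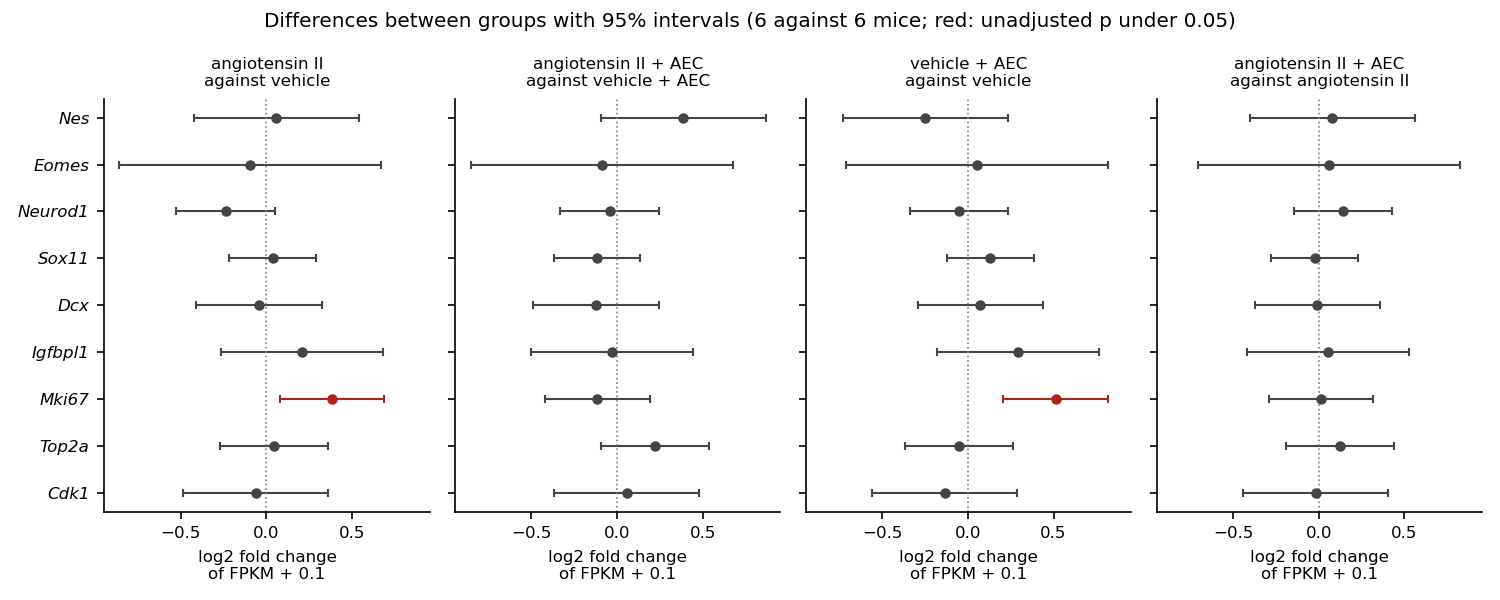
Difference of each gene in 4 comparisons, as log2 fold change of FPKM + 0.1 (horizontal axis) with its 95% interval from limma, 6 against 6 mice. Red marks an unadjusted p under 0.05, reached by Mki67 in angiotensin II against vehicle (0.38) and in vehicle + AEC against vehicle (0.51), and every other interval includes 0.

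Nestin (Nes, ENSMUSG00000004891, chr3:87971078-87980451, plus strand) is the intermediate filament of neural stem cells and is also found in growing endothelium. Nes ranged from 1.78 to 4.20 FPKM with vehicle (median 2.28), from 1.70 to 3.47 with angiotensin II (median 2.61), from 1.32 to 2.58 with vehicle + AEC (median 2.19) and from 1.82 to 4.25 with angiotensin II + AEC (median 2.63). All groups overlapped, and the highest mouse of each group was 1 of the 6 libraries of higher total FPKM. The largest difference was between angiotensin II + AEC and vehicle + AEC, 0.39 on the log2 scale (-0.10 to 0.87, exact permutation p = 0.149), with means of 2.87 ± 1.02 and 2.10 ± 0.426 FPKM (SD, n = 6). Without angiotensin II + AEC replicate 1 it was 0.50 (limma unadjusted p = 0.0478). In the 18 other libraries it was 0.17 (-0.23 to 0.57, limma unadjusted p = 0.377). Angiotensin II against vehicle was at 0.26 there (-0.14 to 0.65, limma unadjusted p = 0.192). The other 3 comparisons gave -0.25 to 0.08 with all mice, and no difference of Nes exceeded the spread between mice.

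Eomes (ENSMUSG00000032446, chr9:118478212-118486132, plus strand) encodes the T-box factor of intermediate progenitors and varied widely between mice. It ranged from 0.551 to 2.05 FPKM with vehicle (median 0.993), from 0.571 to 1.46 with angiotensin II (median 1.16), from 0.276 to 1.79 with vehicle + AEC (median 1.43) and from 0.648 to 1.77 with angiotensin II + AEC (median 1.13). The spread within groups, with coefficients of variation of 31.9% to 52.1%, was 3 or more times the counting error of 9.91% to 10.6%. The log2 differences between groups ran from -0.10 to 0.06, with intervals from -0.86 to 0.82 over the 4 comparisons. In the 18 other libraries the difference of vehicle + AEC from vehicle was 0.49 (-0.19 to 1.17, limma unadjusted p = 0.147) and that of angiotensin II + AEC from vehicle + AEC was -0.39 (-1.07 to 0.29, limma unadjusted p = 0.241).

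Neurod1 (ENSMUSG00000034701, chr2:79452521-79456751, minus strand), a basic helix-loop-helix factor of neuronal differentiation, was the most abundant of the 9 genes at a mean of 15.6 FPKM, and lay above Nes in 24 of 24 mice with no overlap of their ranges. It ranged from 12.9 to 19.8 FPKM with vehicle (median 16.9), from 10.9 to 16.7 with angiotensin II (median 14.0), from 14.3 to 17.7 with vehicle + AEC (median 15.9) and from 9.64 to 18.4 with angiotensin II + AEC (median 16.7). All 6 angiotensin II mice lay below the vehicle median, while the ranges overlapped. The means were 16.7 ± 2.97 and 14.1 ± 2.11 FPKM (SD, n = 6), and the log2 difference was -0.24 (-0.53 to 0.05, exact permutation p = 0.115). It passed the unadjusted threshold in limma when vehicle replicate 6 (-0.31, limma unadjusted p = 0.0378) or angiotensin II + AEC replicate 2 (-0.24, limma unadjusted p = 0.0397) was left out. Without the second of these mice, which had the lowest Neurod1 of all, angiotensin II + AEC against angiotensin II also passed (0.28, unadjusted p = 0.0242), where it was 0.14 with all mice (-0.15 to 0.43, exact permutation p = 0.420).

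Sox11, Dcx and Igfbpl1 mark young neurons. Sox11 (ENSMUSG00000063632, chr12:27334264-27342574, minus strand), a transcription factor that maintains the immature neuronal programme, had group means of 1.65 ± 0.242 FPKM with vehicle, 1.69 ± 0.148 with angiotensin II, 1.82 ± 0.237 with vehicle + AEC and 1.68 ± 0.302 with angiotensin II + AEC (SD, n = 6). The lowest and highest of the 24 mice were at 1.24 and 2.08 FPKM. Its log2 differences lay between -0.12 and 0.13 with intervals from -0.37 to 0.39, and all groups overlapped. In the 18 other libraries vehicle + AEC was at 0.21 from vehicle (-0.02 to 0.44, limma unadjusted p = 0.0707).

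Dcx (ENSMUSG00000031285, chrX:143855842-143933311, minus strand) encodes doublecortin, the microtubule-binding protein of migrating neuroblasts. It ranged from 0.746 to 1.31 FPKM with vehicle (median 1.11), from 0.838 to 1.23 with angiotensin II (median 0.996), from 0.869 to 1.24 with vehicle + AEC (median 1.14) and from 0.631 to 1.35 with angiotensin II + AEC (median 1.17). The groups overlapped and the log2 differences ran from -0.12 to 0.07 (intervals from -0.49 to 0.44). The lowest mice of each group were again the libraries of higher total FPKM. In the 18 other libraries angiotensin II + AEC was above angiotensin II by 0.23 (0.0026 to 0.46, limma unadjusted p = 0.0477, adjusted p = 0.998), a comparison at -0.01 with all mice, and 1259 genes (4.61%) passed the same unadjusted threshold. Angiotensin II against vehicle was at -0.19 there (-0.42 to 0.04, limma unadjusted p = 0.102).

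Igfbpl1 (ENSMUSG00000035551, chr4:45809468-45826923, minus strand), an insulin-like growth factor binding protein relative found in neuroblasts, was the lowest of the neuronal genes with a mean of 0.620 FPKM and 21 to 74 fragments per library. It ranged from 0.322 to 0.893 FPKM with vehicle (median 0.451), from 0.448 to 1.12 with angiotensin II (median 0.545), from 0.503 to 0.899 with vehicle + AEC (median 0.594) and from 0.456 to 0.843 with angiotensin II + AEC (median 0.645). All 6 vehicle + AEC mice lay above the vehicle median. The log2 difference of vehicle + AEC from vehicle was 0.29 (-0.18 to 0.77, exact permutation p = 0.251), and in the 18 other libraries, 5 against 4 mice, it was 0.62 (0.23 to 1.02, limma unadjusted p = 0.00417, adjusted p = 1). There the vehicle mice ranged from 0.322 to 0.488 FPKM and the vehicle + AEC mice from 0.503 to 0.899. The share of all genes that separate in this way in these mice was not counted. An unadjusted p under 0.05 in that comparison was reached by 1140 genes (4.18%). With the library set as a term in the fit of all 24 mice, that difference was 0.38 (-0.00062 to 0.76, unadjusted p = 0.0503).

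The 6 libraries of higher total FPKM differed from the other 18 in several of the 9 genes, and no test was made because the sets were read from the libraries. Dcx did not overlap between them, with 0.631 to 0.869 FPKM in the 6 and 0.894 to 1.35 in the 18, a difference in mean log2 level of -0.54. Of all genes tested, 16.3% (4442) were likewise lower in the 6 without overlap. Nes was higher in the 6 (mean 3.60 FPKM beside 2.20, log2 0.70), as was Igfbpl1 (0.813 beside 0.556, log2 0.49). Mki67 was lower in the 6 (0.0796 beside 0.127, log2 -0.33), and so were Eomes (log2 -0.43) and Sox11 (-0.27), all with overlap, while Neurod1 (0.02), Cdk1 (0.08) and Top2a (-0.10) lay close together in both sets. The share of fragments on mitochondrially encoded genes was 6.17% to 6.85% in the 6 and 4.79% to 5.75% in the 18. Summed endothelial markers ranged from 111 to 133 FPKM in the 6 and from 71.1 to 95.8 in the 18, oligodendrocyte precursor markers from 45.4 to 50.9 and from 31.2 to 38.8, and choroid plexus and ependymal markers from 845 to 1133 and from 361 to 778. Dentate gyrus granule neuron markers ranged from 13.2 to 14.9 and from 10.3 to 12.7. Erythroid markers (medians 162 and 60.1), microglial, cerebellar granule neuron and olfactory bulb markers overlapped between the sets. The part of these in the levels of the 9 genes was not tested.

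**Figure D3:**
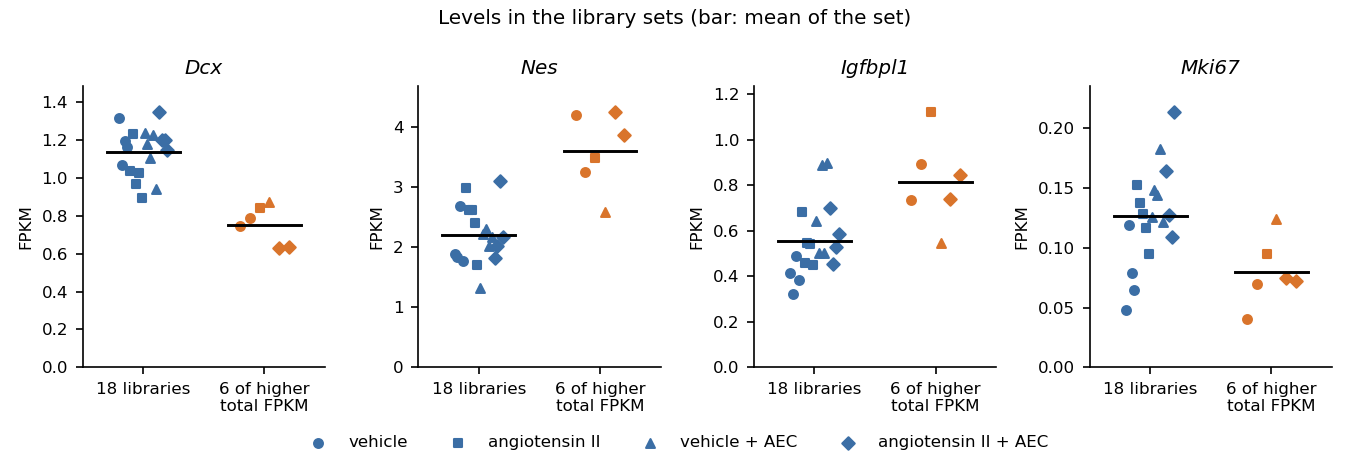
Dcx, Nes, Igfbpl1 and Mki67 in FPKM (vertical axis, from 0) in the 18 libraries and in the 6 libraries of higher total FPKM. Symbols show the group of each mouse and bars the mean of the set. Dcx does not overlap between the sets (0.631 to 0.869 and 0.894 to 1.35 FPKM).

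Correlations of log2(FPKM + 0.1) between the 9 genes across mice were made within the 18 libraries and within the 6, over 36 pairs of genes in each. Within the 18, only Sox11 and Eomes passed adjustment over the 36 pairs, with Pearson r = 0.829 (permutation p = 1e-05, the smallest that 100000 permutations can give, adjusted p = 0.00036) and Spearman rho = 0.827 (permutation p = 0.00011, adjusted p = 0.00396). Without the 2 mice farthest from the median the coefficient was 0.758. Within the 6 libraries it was 0.563 (exact permutation p = 0.25). No pair passed the adjustment there, where 6 libraries allow only few orders to permute. Mki67, Top2a and Cdk1, which rise together in a dividing cell, had r of 0.207 (Mki67 and Top2a), -0.199 (Mki67 and Cdk1) and -0.0108 (Top2a and Cdk1) within the 18 libraries, on counts as low as these.

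Against the mean levels of 8 lists of cell type markers, 72 relations in each set, Neurod1 with the cerebellar granule neuron markers Gabra6, Cbln3, Fat2, Cbln1 and Barhl1 alone passed adjustment within the 18 libraries. Its Pearson r was 0.823 (permutation p = 0.00024, adjusted p = 0.0173) and its Spearman rho 0.602 (adjusted p = 0.175), and without the 2 mice farthest from the median r fell to 0.453, so the relation rests partly on those mice. Within the 6 libraries r was 0.970 (exact permutation p = 0.00278, adjusted p = 0.2). Eomes with olfactory bulb mitral and tufted cell markers had r = 0.584 in the 18 (permutation p = 0.0111, adjusted p = 0.244), and 0.477 without the 2 mice farthest from the median. The summed cerebellar markers ranged from 122 to 170 FPKM with vehicle, 105 to 150 with angiotensin II, 122 to 153 with vehicle + AEC and 88.5 to 166 with angiotensin II + AEC. Of these 5 markers, 1 was higher and 4 lower in angiotensin II than in vehicle, where Neurod1 was at -0.24, and their part in that difference was not tested.

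The genes most like each of the 9 across mice were ranked by Pearson r of log2 levels centred on group and library set, over 24 mice and 13649 genes with a mean of at least 1 FPKM, as a description with no test. For Neurod1 they were Car8 (r = 0.959) and Calb1 (0.958), both strongly expressed in Purkinje cells, and Gabra6 (0.938), a receptor subunit of cerebellar granule neurons. For Eomes they were Ak4 (0.894), an adenylate kinase, and Cry1 (0.879) and Per2 (0.878), which encode repressors of the circadian clock. For Sox11 they were Foxo6 (0.798), Klf2 (0.795) and Trib1 (0.776), and Sox11 itself had r of 0.740 with Cry1 and 0.696 with Per2. For Dcx they included Tnfaip8l3 (0.782) and Ppp3cb (0.775). Nes was most like Tmem109 (0.806), Commd7 (0.748) and Ccdc190 (0.732), and Igfbpl1 most like Fgd1 (0.753), Fbxo9 (0.723) and Ap1g2 (0.681). Mki67 was most like Adam33 (0.708), Bcas3 (0.674) and Ppp1r21 (0.658), Top2a like Ppp6c (0.707), Crebzf (0.705) and Nadk2 (0.684), and Cdk1 like Glul (0.768), Yrdc (0.737) and Gm9816 (0.729). None of the 27 genes in these first 3 places was another of the 9.

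**Figure D4:**
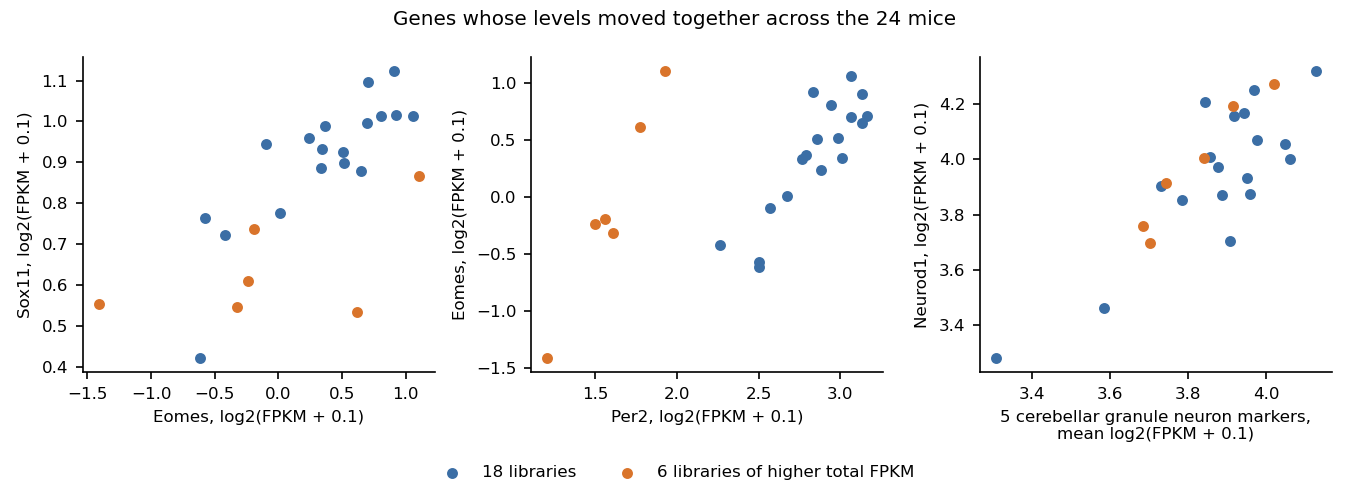
Sox11 against Eomes, Eomes against Per2 and Neurod1 against the mean of 5 cerebellar granule neuron markers, all as log2(FPKM + 0.1), 1 point per mouse. Orange points are the 6 libraries of higher total FPKM. Within the 18 libraries r was 0.829, 0.866 and 0.823. Per2 was picked for its high r with Eomes among 13649 genes in these same mice, so 0.866 is a description with no test. Leaving out the 2 mice farthest from the median gave 0.758 for Sox11 against Eomes. The same step gave 0.453 for Neurod1 against the markers.

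Genes of the same processes were examined as 5 lists. None of their members passed an adjusted p of 0.05 in any comparison. An unadjusted p under 0.05 was reached by 2.21% to 2.66% of all genes tested, depending on the comparison. Of 11 neural stem and radial glia-like cell genes, of which the lipid-binding protein gene Fabp7 was highest at a mean of 23.8 FPKM, 0 had an unadjusted p under 0.05 for angiotensin II against vehicle. Sox2, the stem cell factor, was lower in vehicle + AEC than in vehicle (-0.16 on the log2 scale, 19.7 ± 2.31 against 21.9 ± 1.45 FPKM, SD, n = 6, limma unadjusted p = 0.0231, exact permutation p = 0.0779) and had an interaction of 0.25 (limma unadjusted p = 0.0132). In both it was 1 of 11 genes, beside 2.41% and 2.54% of all genes tested. The median log2 difference of the list was -0.12 in vehicle + AEC against vehicle, beside 0.01 for all genes tested. Of 15 neuroblast and immature neuron genes, headed by Stmn1 at 258 FPKM, and of 7 neurogenic bHLH, T-box and granule neuron genes, headed by Calb1 at 40.1 FPKM, 0 passed the unadjusted threshold in any comparison, and their medians lay between -0.05 and 0.02.

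Of 36 further cell cycle genes, 1 passed the unadjusted threshold for angiotensin II against vehicle, beside 2.21% of all genes tested. It was Ccna2, the cyclin A2 gene of S phase, at 0.303 ± 0.101 FPKM with vehicle and 0.458 ± 0.0672 with angiotensin II (SD, n = 6, log2 0.50, limma unadjusted p = 0.0118, exact permutation p = 0.00866). The median of the 36 was -0.01, with 17 of 36 above 0, beside a median of 0.02 for all genes. For vehicle + AEC against vehicle, the comparison with the largest Mki67 difference, 0 of 36 passed, beside 2.41% of all genes tested. The median there was 0.0027, with 18 of 36 above 0, beside 0.01 for all genes. Angiotensin II + AEC against vehicle + AEC gave the survivin gene Birc5 higher (log2 0.50, limma unadjusted p = 0.0226) and the mitotic kinesin gene Kif11 lower (-0.45, limma unadjusted p = 0.04997). These were 2 of 36 genes, beside 2.66% of all genes tested. Angiotensin II + AEC against angiotensin II gave Ube2c, a ubiquitin-conjugating enzyme of mitosis, higher (0.73, limma unadjusted p = 0.0119). It was 1 of 36 genes, beside 2.54% of all genes tested. Kif11 (-0.67) and Ube2c (0.90), 2 of the 36, also passed in the interaction, in opposite directions, beside 2.54% of all genes tested. All of these passing genes of the list had means under 0.5 FPKM. Of 7 cell cycle inhibitor genes, headed by Cdkn2d at 34.5 FPKM, 0 passed in any comparison.

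**Figure D5:**
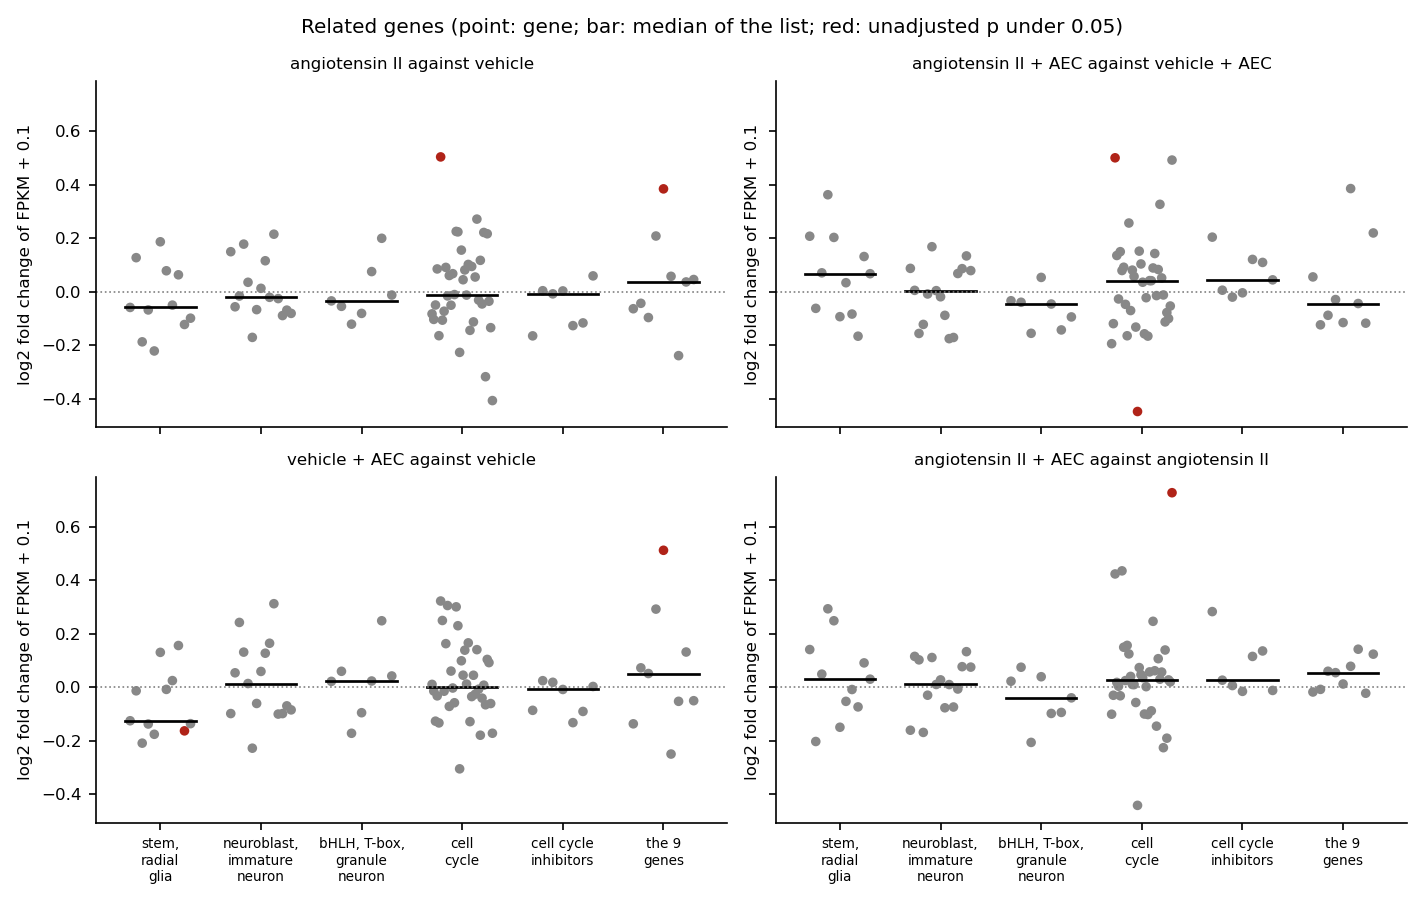
Log2 fold change of FPKM + 0.1 (vertical axis) of each gene of 5 related lists and of the 9 genes, in 4 comparisons. Points are genes, bars the median of the list, and red an unadjusted p under 0.05. The medians of the lists lie between -0.12 and 0.07, and Mki67 is the red point of the 9 genes.

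Markers of cell types that could hold transcripts of the 9 genes were compared as well. None of 39 such markers in 8 lists passed an adjusted p of 0.05. At the unadjusted threshold the oligodendrocyte precursor gene Neu4 was lower in angiotensin II + AEC than in angiotensin II (-0.21, limma unadjusted p = 0.042), and the endothelial gene Pecam1 was higher in angiotensin II + AEC than in vehicle + AEC (0.18, limma unadjusted p = 0.0346), the comparison in which Nes was at 0.39. Each was 1 of 39 markers in its comparison, near the shares of 2.54% and 2.66% of all genes tested. For Mki67, summed oligodendrocyte precursor markers ranged from 34.4 to 47.1 FPKM with vehicle, from 33.6 to 45.4 with angiotensin II, from 32.6 to 47.1 with vehicle + AEC and from 31.2 to 50.9 with angiotensin II + AEC, and summed microglial markers from 22.1 to 29.1 FPKM over all mice, with 0 of 10 of these markers passing in either comparison where Mki67 did. Erythroid markers varied most, from 32.9 to 204 FPKM with vehicle and from 41.3 to 169 with angiotensin II + AEC, and all 5 were higher in angiotensin II + AEC than in vehicle + AEC (median log2 0.76, none with an unadjusted p under 0.05). Their part in the differences was not tested.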

How the data were processed

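Brain RNA of 24 mice in 4 groups of 6 was analysed. Groups and replicate numbers were taken from the sample labels. The authors deposited FPKM values per gene, normalised by them for gene length and library size. According to the methods of the study, reads were mapped to the Ensembl mouse genome and differential expression was tested with DESeq, version 1.10.1. Which aligner and counter were used, and whether strand was used, is not given in the sources used here, so overlapping and antisense genes have uncertain values. Neurod1 lies within Cerkl (0.196 FPKM) and Eomes overlaps Gm33460 (0.133 FPKM). Coordinates are those of GRCm38, as deposited.

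All 4 groups entered 1 fit in limma 3.58.1 (R 4.3.3) on log2(FPKM + 0.1), with a trend on mean level. P-values were adjusted by the method of Benjamini and Hochberg across 27286 genes, those detected above 0 in 6 or more of the 24 mice. The 4 comparisons and the interaction were contrasts of this fit. For single genes a two-sided exact permutation test over the 924 splits of 6 against 6 mice was added. Correlations used 100000 permutations in 18 libraries and exact permutation in 6. Fragments were recovered from FPKM multiplied by gene length, and 100% of values under 2000 fragments were whole within 0.05. At 16536449 to 25308700 fragments per library, counts of 3 or fewer cannot be told from 0, and counting errors cover sampling of fragments only. Library sets were separated at a total of 310000 FPKM.

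The 9 genes, the related lists, the marker lists and the fits by library set were chosen with earlier results of these data known. All 9 genes are named. From each related list, genes with an unadjusted p under 0.05 (at most 4 per comparison) and the gene of highest mean are named, and per gene the 3 most alike, of which 1 is not reported here. The fit was tested on simulated data with known changes. Alternatives were pseudocounts of 1 and 0.01, no filter, a minimum mean of 1 FPKM, a fit of the compared groups alone, a replicate block, median ratio scaling, voom on the recovered fragments, array weights, the library set as a term, the 18 libraries alone and each mouse left out. Software was matplotlib 3.10.9, scipy 1.17.1, numpy 2.4.6, pandas 2.3.3 and Python 3.11.15.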

Additional observations from a re-analysis of the deposited data

Results flagged for a closer look

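For Mki67 the effect of angiotensin II with AECs was set against that without, and their difference passed an unadjusted threshold of 0.05 only. The interaction was -0.4995 on the log2(FPKM + 0.1) scale (limma unadjusted p = 0.0249, adjusted p = 0.931), with angiotensin II at 0.38 above vehicle and at -0.11 from vehicle + AEC when AECs were given. It did not pass that threshold in the 18 libraries alone (-0.32, limma unadjusted p = 0.183) or with array weights (-0.37, limma unadjusted p = 0.0675).

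Angiotensin II replicate 5 had the highest Igfbpl1 of its group, 1.124 FPKM, and lay apart from the other 5 mice. It is 1 of the 6 libraries of higher total FPKM, in which Igfbpl1 had a mean of 0.813 FPKM beside 0.556 in the other 18. Vehicle + AEC replicate 1 had the highest Top2a of its group, 0.1158 FPKM, on 19 fragments. The coefficient of variation of Top2a in that group was 15.2%, below the counting error of 25.5%. Of 36 groups examined in this way (9 genes in 4 groups), 2 had such a mouse, and chance flags about 1 in 20 groups.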

How the results depend on the processing

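No alternative gave any of the 9 genes an adjusted p under 0.05. The count of the 9 genes at an unadjusted p under 0.05 was 1 for angiotensin II against vehicle, 1 for vehicle + AEC against vehicle and 1 for the interaction, Mki67 in each. With only genes of a mean FPKM of at least 1 each of these counts was 0, since Mki67, Top2a, Cdk1 and Igfbpl1 were then not tested. For vehicle + AEC against vehicle the count was 2 (Igfbpl1 and Mki67) with array weights and in the 18 libraries alone. For the interaction it was 0 in both of these fits, and for angiotensin II + AEC against angiotensin II it was 1 (Dcx) in the 18 libraries. With each mouse left out in turn the counts ranged from 1 to 2 for angiotensin II against vehicle and for the interaction, and from 0 to 1 for angiotensin II + AEC against vehicle + AEC (Nes without angiotensin II + AEC replicate 1) and against angiotensin II. Neurod1 was the gene that joined the other counts, without vehicle replicate 6 or angiotensin II + AEC replicate 2.

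With the replicate number as a block, the count of the 9 genes was again 1 for angiotensin II against vehicle, for vehicle + AEC against vehicle and for the interaction and 0 for the other 2 comparisons. Mki67 then had limma unadjusted p-values of 0.0108, 0.00137 and 0.0177. The replicate block raised the count over all genes from 604 to 950 for angiotensin II against vehicle and from 692 to 1416 for the interaction. Same-numbered mice had correlations of -0.224 to 0.797, with 19 of 24 pairs over 0.1 and 6 of 24 mice most like their own number, and the labels do not tie them, so the numbers were not taken as pairs. Over all genes the main counts of 604 to 725 were 1254 to 1331 with array weights, 931 to 1093 with the library set as a term and 1053 to 1259 in the 18 libraries alone. With array weights 1 gene passed an adjusted p of 0.05 in the interaction, where 0 did before. The cause was not tested for any of these.

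Of 37 differences of single genes, 31 values under other settings and 63 with a mouse left out changed sign, all from differences of at most 0.12 on the log2 scale and all at an unadjusted p of 0.0477 or more. With the library set as a term these were Sox11 -0.0065 for angiotensin II against vehicle, Dcx -0.019 and Eomes -0.022 for vehicle + AEC against vehicle, and Dcx 0.084, Sox11 0.021, Igfbpl1 -0.034 and Nes -0.036 for angiotensin II + AEC against angiotensin II. With array weights they were Eomes 0.036 and Top2a -0.0060 for angiotensin II against vehicle, Dcx 0.032 for angiotensin II + AEC against vehicle + AEC, Dcx -0.015 for vehicle + AEC against vehicle, and Dcx 0.16, Sox11 0.043, Nes -0.051 and Cdk1 0.060 for angiotensin II + AEC against angiotensin II. In the 18 libraries they were, in the same order of comparisons, Eomes 0.079 and Top2a -0.038, then Dcx 0.10, Mki67 0.042 and Cdk1 -0.014, then Dcx -0.058, then Dcx 0.23, Sox11 0.069, Nes -0.12 and Cdk1 0.095. Voom gave Top2a 0.051 for vehicle + AEC against vehicle, and Mki67 -0.039 and Cdk1 0.0037 for angiotensin II + AEC against angiotensin II. In that comparison Dcx was 0.0077 with a pseudocount of 1 and 0.0020 with median ratio scaling, and Mki67 was -0.0092 with a pseudocount of 0.01.

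With a mouse left out, angiotensin II against vehicle ranged from -0.13 to 0.023 for Dcx, -0.038 to 0.081 for Sox11, -0.033 to 0.21 for Nes, -0.27 to 0.071 for Eomes, -0.053 to 0.12 for Top2a and -0.18 to 0.0061 for Cdk1. Angiotensin II + AEC against vehicle + AEC ranged from -0.10 to 0.055 for Igfbpl1, -0.43 to 0.042 for Eomes, -0.094 to 0.091 for Neurod1 and -0.064 to 0.18 for Cdk1. Vehicle + AEC against vehicle ranged from -0.0095 to 0.14 for Dcx, -0.13 to 0.40 for Eomes, -0.12 to 0.00087 for Neurod1 and -0.15 to 0.026 for Top2a. Angiotensin II + AEC against angiotensin II ranged from -0.091 to 0.11 for Dcx, -0.085 to 0.033 for Sox11, -0.019 to 0.21 for Igfbpl1, -0.046 to 0.19 for Nes, -0.089 to 0.19 for Eomes, -0.088 to 0.085 for Mki67 and -0.10 to 0.096 for Cdk1. Depth limits Mki67, Top2a and Cdk1, with 2 to 44 fragments per library.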
